A study of Mus musculus with 9 samples.

Results

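Mural cells are the contractile and supporting cells that wrap the vessels of the brain, and 275 of them (0.903%) were found among 30463 filtered cells of 9 single-cell libraries. The libraries were made to study microglia, so the mural cells came along with a sort for the myeloid surface protein CD11b. A cell was counted as mural when it held a unique molecular identifier (UMI, a tag that marks 1 captured RNA molecule) for 3 or more of 9 genes, namely Acta2, Tagln, Myl9, Vtn, Rgs5, Pdgfrb, Kcnj8, Higd1b and Notch3, for at most 1 of the microglial genes P2ry12, Tmem119, Siglech and Gpr34, and for at most 2 of the endothelial genes Cldn5, Flt1, Slco1a4 and Ptprb. The members were thus chosen by their own UMIs of these genes, which describe the selection and are given below without a test.

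Vascular smooth muscle cells ring arteries and arterioles and contract to set vessel diameter through actin and myosin filaments. Pericytes sit on capillaries inside the basement membrane they share with the endothelium, depend on platelet-derived growth factor signalling through Pdgfrb, and help to form the blood-brain barrier. Neither cell type is myeloid.

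All mice were females of the strain C57BL/6 by the labels (C57BL/6J in the study's text), aged 5 months. The Ctrl libraries each held 1 untreated brain. The D0 libraries each pooled 2 brains after 14 days of a diet with 1200 mg/kg of PLX5622, an inhibitor of the receptor CSF1R that microglia need to survive, and the D2 libraries each pooled 2 brains after the same treatment followed by 2 days of control diet. The cerebellum was removed, the tissue was digested and stripped of myelin, live CD11b-stained cells were sorted, and RNA was captured with 10x 3′ v3 chemistry in 3 libraries per group, numbered here as in the labels (Ctrl-1 to Ctrl-3, D0-1 to D0-3 and D2-1 to D2-3). The design limits what can be said of vessels: the cells passed a gate meant to hold myeloid cells, a D0 or D2 library averages over 2 brains while a Ctrl library is a single brain, and arteries, capillaries and veins were not kept apart.

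Several libraries and cells stood apart before any comparison was made. Library D2-3 was left out of the study's own analysis. Its 17 mural cells are part of the descriptions over all 275 cells, and no test uses it unless it is named; without it 258 mural cells remained in 28655 cells. Library Ctrl-2 held 3 mural cells and was left out of the tests of gene levels. Of all filtered cells, 196 carried 1 of 98 barcodes that recurred in another library, and 1 of these was mural. A limit of 10% mitochondrial UMIs removed 31 cells that otherwise met the mural rule, namely 13 of 52 in Ctrl, 8 of 141 in D0 and 10 of 96 in D2-1 and D2-2, so it bore hardest on Ctrl.

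The label fitted most but not all of the selected cells. Of the 275 cells, 211 carried 5 or more of the 9 mural genes and 64 carried 3 or 4. Just inside the rule, the 28 cells with 3 mural genes had a median of 869 UMIs, 46.4% of them held Acta2 and 17.9% Vtn; just outside it, the 35 cells with 2 mural genes had a median of 891 UMIs, and 34.3% held Acta2 and 17.1% Vtn. Marker genes of a cell type other than microglia were present at a fixed minimum number in 48 of the 275 cells, and 20 of these 48 were among the 64 cells with few mural genes. Fibroblast markers made up the largest group, with 4 or more of 9 genes in 18 cells, of which 8 were in the smooth muscle class and 6 in the pericyte class; these cells held 843 of the 1359 fibroblast UMIs, and 1 cell of library Ctrl-3 held 377; it had 3 of the 9 mural genes and no UMI of Rgs5, and falls in the pericyte class by the ratio alone. Endothelial markers reached 3 genes in 13 cells, astroglial markers 2 genes in 9 cells, all of the smooth muscle class with 3 or 4 mural genes, and microglial markers, counted separately, 8 of 16 genes in 9 cells. Of the 9 cells with astroglial markers, 7 also held at least 2 of the ependymal genes Tmem212, Ccdc153 and Foxj1, which hold the cilia and motor programme of the ventricle lining. They carried all 491 UMIs of these genes, 4 of the 7 cells came from library D0-3, and all 7 had only 3 or 4 mural genes. Markers of neutrophils (S100a8, S100a9, Retnlg and Ly6g) reached 2 or more genes in 16 cells, which held 2503 of the 2547 such UMIs. Some listed markers were common in both mural classes, so a cell can reach a minimum partly through them. Col1a2, of the fibroblast list, had a UMI in 41.1% of smooth muscle cells and 32.7% of pericytes. Esam, of the endothelial list, had one in 58.9% and 49.0%. Others were rare, such as Lum (1.27% and 0.962%) and Pecam1 (0.633% and 0%). Without library D2-3, 40 of 258 cells held markers of another type, 16 of them those of fibroblasts, 11 of neutrophils and 8 of endothelium. The gene counts of the main lists and the differences between groups are also given below for the 211 cells with 5 or more mural genes, of which 28 still held markers of another type.

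CD11b is encoded by Itgam, and its RNA was found in 5.70% of the smooth muscle class and 0.962% of the pericyte class, against 87.4% of microglia and 3.31% of endothelial cells. Summed microglial markers, a list of 16 genes, came to between 166 and 1895 CPM in the mural cells of 8 libraries and 2603 in D2-3, where 1 cell held 176 of the 217 UMIs, and between 25851 and 70444 in microglia of the same libraries, where CPM is the usual depth-scaled count, the UMIs of a gene or list brought to the same fixed total in every sum. Within mural cells the most abundant of them varied with the library, being C1qa in Ctrl-1 and D0-1 and Tyrobp in D0-3, for example. How the mural cells came through the sort was not tested.

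The mural cells fell into a contractile and a capillary class by a simple ratio. A cell was called smooth muscle when the UMIs of Acta2, Tagln and Myl9 were at least 2 times those of Vtn, Kcnj8 and Higd1b, pericyte when the reverse held, and intermediate otherwise. This gave 158 smooth muscle cells, 104 pericytes and 13 intermediate cells (151, 96 and 11 without library D2-3). No cell had a ratio between 1.5 and 2, and 3 had a ratio between 2 and 2.5. The ratio sorts cells by these 6 genes alone, so the 7 ependymal-marker cells stand in the smooth muscle class. Smooth muscle cells were the deeper class, with a median of 6376.5 UMIs against 2702.5 in pericytes, and had a median of 6.47% mitochondrial UMIs against 3.33%.

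**Figure D1:**
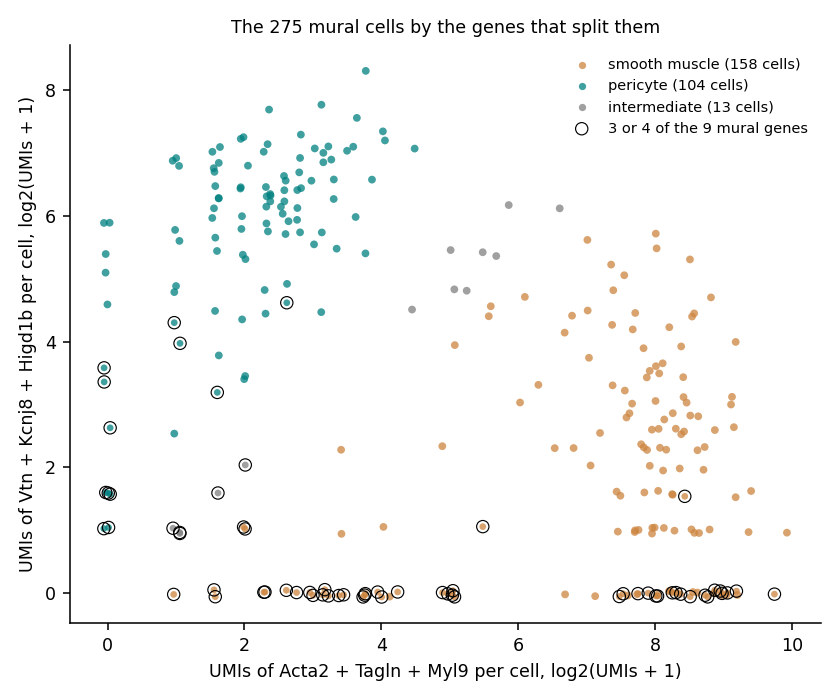
Each point is a mural cell placed by its summed UMIs of Acta2, Tagln and Myl9 on the horizontal axis and of Vtn, Kcnj8 and Higd1b on the vertical axis, both as log2 of UMIs plus 1 with a small random shift, coloured by class; black rings mark cells with only 3 or 4 of the 9 mural genes. The 158 smooth muscle cells and 104 pericytes lie along different axes, with 13 intermediate cells between them.

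The selecting genes described the classes as follows. Acta2, smooth muscle actin, had a UMI in 96.8% of smooth muscle cells, 5.77% of pericytes, 0.736% of endothelial cells and 0.662% of microglia. Vtn, which encodes the matrix protein vitronectin, had a UMI in 46.8% of smooth muscle cells, 98.1% of pericytes, 0.613% of endothelial cells and 0.231% of microglia. Endothelial cells and microglia, which should lack both RNAs, had median depths of 3845 and 7318.5 UMIs. Both groups were limited to cells with fewer mural genes than the mural rule requires, so their shares are partly fixed by selection and can understate the background. Among barcodes with enough mural genes, 48 were kept out of the mural set by their microglial genes and 10 by their endothelial genes. Whether free RNA or doublets gave the shares was not tested. Kcnj8, a subunit of the ATP-sensitive potassium channel, had a UMI in 84.6% of pericytes and 3.80% of smooth muscle cells. Rgs5, a regulator of G-protein signalling, was in both classes, at 98.1% of pericytes and 65.2% of smooth muscle cells, and Notch3, the mural Notch receptor, at 66.3% and 72.2%. When every cell was thinned to 2000 UMIs, which kept 137 smooth muscle cells and 76 pericytes, the order for Acta2 (97.1% and 5.26%), Vtn (37.2% and 100%) and Kcnj8 (2.19% and 89.5%) was as before. Without library D2-3, Acta2 was in 97.4% of smooth muscle cells and 6.25% of pericytes, and Vtn in 46.4% and 99.0%.

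Mural cells made up a larger part of the D0 and D2 libraries on average than of Ctrl, but the libraries of a group varied widely. Their share of filtered cells was 0.375%, 0.116% and 0.541% in the Ctrl libraries, 1.69%, 0.321% and 1.78% in D0, and 1.19% and 1.61% in D2-1 and D2-2. Library D0-2 lay among the Ctrl values, while both D2 libraries lay above all of them. The exact 95% binomial interval, which covers counting error only, was 0.0240% to 0.340% in library Ctrl-2, the smallest, and 1.31% to 2.36% in library D0-3, the largest. The mean was 0.344% ± 0.214 (SD, n = 3) in Ctrl and 1.26% ± 0.818 (n = 3) in D0, a 3.67-fold difference that did not pass a two-sided exact permutation test (p = 0.3, where 0.1 is the smallest the design allows). In D2 it was 1.40% ± 0.296 (n = 2), 4.08-fold the Ctrl mean (two-sided exact permutation p = 0.2, the smallest possible with 2 against 3). Library D2-3 had 0.940%, also above every Ctrl library. In cells with 5 or more mural genes the differences from the Ctrl mean were 0.72 percentage points for D0 and 0.83 for D2, against 0.920 and 1.06 in all mural cells. A share depends on how many other cells were sorted, and a treatment that removes microglia cannot be told apart from a gain of mural cells by this measure.

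Set against endothelial cells, the other vessel cells in the same libraries, the mean number of mural cells differed between groups by less than the spread of the Ctrl libraries. There were 42.1, 8.82 and 35.7 mural cells per 100 endothelial cells in Ctrl, 44.0, 17.8 and 39.5 in D0, and 32.6 and 31.7 in D2. All D2 values lay inside the Ctrl range, and the D0 values overlapped with it. The means were 28.9 ± 17.7 (SD, n = 3), 33.8 ± 14.0 (n = 3) and 32.2 ± 0.659 (n = 2), and the differences of 4.89 for D0 and 3.29 for D2 had exact permutation p-values of 0.6 and 1. Their sign turned under some alternatives: without library Ctrl-2, with its 3 mural cells, the differences were -5.14 and -6.74. Without the mitochondrial limit, which had taken a larger share of the Ctrl cells, they were -1.30 and -0.0934. In cells with 5 or more mural genes they were 4.18 and 3.07.

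**Figure D2:**
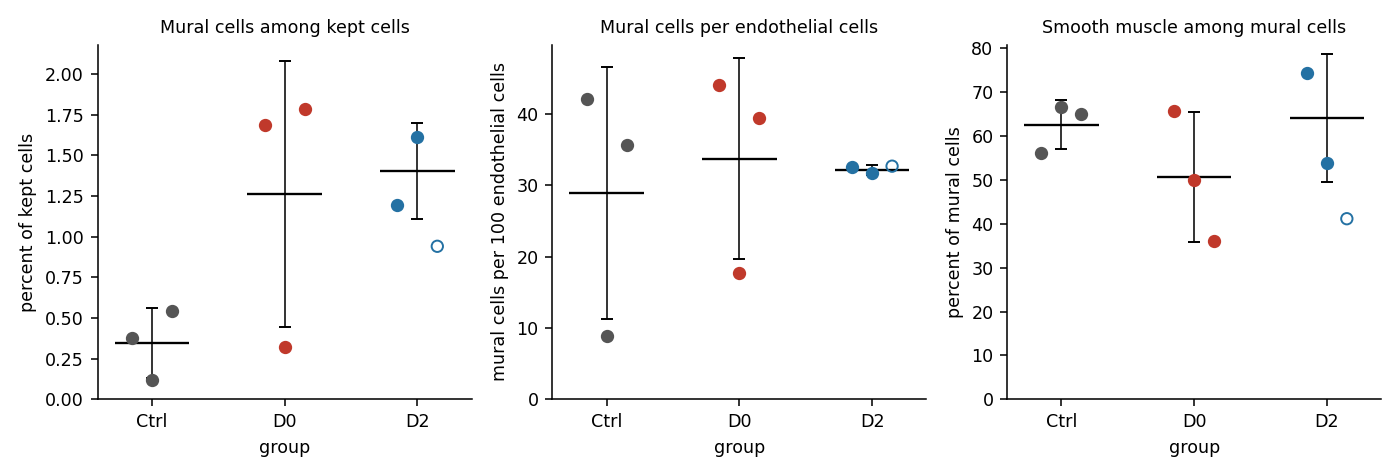
Per-library values by group (Ctrl, D0, D2) of mural cells as a percent of filtered cells, mural cells per 100 endothelial cells, and smooth muscle cells as a percent of mural cells, with bars for the mean and SD; the open circle is library D2-3, which is outside the mean. The share of filtered cells runs from 0.116% to 1.78% while the number per 100 endothelial cells overlaps between all groups.

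The balance of the classes did not separate the groups either. Smooth muscle cells were 56.3%, 66.7% and 65.0% of mural cells in Ctrl, 65.7%, 50% and 36.2% in D0, and 74.5% and 53.8% in D2. Library D0-3 was the lowest and library D2-1 the highest. The D0 mean of 50.6% ± 14.8 (SD, n = 3) was 12.01 percentage points below the Ctrl mean of 62.6% ± 5.60 (n = 3; exact permutation p = 0.3), and the D2 mean of 64.2% ± 14.6 (n = 2) differed from it by 1.52 points (exact permutation p = 1). In cells with 5 or more mural genes the D0 difference was -23.8 points (exact permutation p = 0.4) and the D2 difference -11.8 (p = 1); the smooth muscle cells of library D0-3 fell from 17 to 10 there, while its 29 pericytes remained. With the ratio, the gate, the depth or library D2-3 treated otherwise, the D2 difference took either sign.

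The clearest contrast in these cells was between the classes, and it was measured within the same libraries. Raw UMIs were summed per class in the 4 libraries with 10 or more cells of each class, D0-1, D0-3, D2-1 and D2-2, giving 119 smooth muscle cells with 716071 UMIs and 75 pericytes with 196261 UMIs. All 4 came from mice given the inhibitor, so no class difference below was measured in Ctrl. Levels below are CPM of such a sum, and differences are log2 fold changes of smooth muscle over pericyte from edgeR's quasi-likelihood test with the library as a block, called at a Benjamini-Hochberg adjusted p under 0.05. Of 3297 genes tested, 700 (21.2%) were higher in smooth muscle and 457 (13.9%) were higher in pericytes, and the median log2 fold change of all tested genes was 0.05. In 884 of the 1157 called genes the classes did not overlap in any pair of libraries, against 1103 of all tested genes. The classes were cut from the counts of the same cells, so genes that vary together with the 6 splitting genes had to differ; the p-values say how steady a difference was over 4 libraries, not that the classes exist. With the 211 cells that had 5 or more mural genes, 2544 genes were tested and 1128 were called, of which 970 were called in both.

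Genes of the contractile apparatus lay on the smooth muscle side almost throughout. Of 21 tested genes of a list of 22, 20 were higher in smooth muscle (21.2% of all tested genes were), none was higher in pericytes and 1 was not called, with a median log2 fold change of 4.63, or 3.28 when the 3 genes without a pericyte UMI are set to the bound that 3 UMIs allow; among cells with 5 or more mural genes it was 18 of 19. Myh11, the smooth muscle myosin heavy chain, had 3920, 1285, 4980 and 3924 CPM in the smooth muscle sums (in D0-1, D0-3, D2-1 and D2-2) and 80.7, 43.5, 43.6 and 90.4 in the pericyte sums. The lowest smooth muscle value, in library D0-3, was far above every pericyte value, and the log2 fold change was 5.84 (SE 0.27, adjusted p = 2.30e-20). Tpm2, a tropomyosin that lies along actin filaments, averaged 4869 ± 1560 (SD, n = 4) in smooth muscle and 249 ± 117 in pericytes, a log2 fold change of 4.71 (SE 0.21, adjusted p = 8.15e-21).

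Some contractile genes were all but absent from pericytes. Cnn1, which encodes the actin-binding calponin, had 296, 84.5, 512 and 335 CPM in smooth muscle and no UMI in pericytes, so that it was at least 20.6-fold higher (against a floor of 3 UMIs over the 4 pericyte sums). Pln, the regulator of the sarcoplasmic calcium pump, had 1208, 700, 1288 and 1054 in smooth muscle against a single pericyte UMI, a pooled ratio whose 95% counting interval was 38.0 to 8401. Other members were shared. Ppp1r14a, an inhibitor of myosin phosphatase, was at 699 ± 260 (SD, n = 4) in smooth muscle and 416 ± 23.2 in pericytes, with overlapping libraries and a log2 fold change of 0.96 (SE 0.25, adjusted p = 0.00200) that lost its call without library D2-2 (0.65, adjusted p = 0.118). Cald1, the actin-binding caldesmon, was at 3601 ± 1410 and 5417 ± 473, and its log2 fold change of -0.36 (SE 0.17, adjusted p = 0.105) did not pass; leaving out library D2-1 or scaling by the upper quartile brought it past the threshold on the pericyte side.

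Contractile genes are known targets of serum response factor, which binds a short element called the CArG box together with myocardin. The myocardin gene itself, Myocd, had 37 UMIs in smooth muscle and none in pericytes of the 4 libraries, which was below the filter of the class contrast. In RefSeq promoter windows of GRCm38.p6, from 250 bases before to 50 bases after each annotated start of a gene, a CArG box (searched by its consensus, which reads the same way on both strands) was present for 488 of 27025 genes (1.81%). It was found for 2 of the 21 matched contractile and splitting genes, for 1 of the 11 matched genes with the largest smooth muscle excess, and for none of 13 matched pericyte genes or of 13 matched genes with the largest pericyte excess. These matches are a description of the letters in the windows. Only exact matches to CC, a fixed run of A or T, and GG were counted, so a window without one can still hold a variant. The Acta2 window, counted without a box, holds ccctatatgg, which differs from the consensus at 1 base. The 3 boxes are shown in capitals, with 25 bases on either side, because they lie near annotated starts of genes that this contrast turns on: Myl9 (myosin light chain, chr2:156775278-156775337, plus strand, box at -161 from the start), Filip1l (a filamin-interacting protein, chr16:57549155-57549214, plus strand, box at -62 from a downstream start inside the gene, which spans 57353093 to 57573126) and Fbxl22 (a sarcomeric F-box protein, chr9:66514781-66514840, minus strand, box at -222).
Myl9: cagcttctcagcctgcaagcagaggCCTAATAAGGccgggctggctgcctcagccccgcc
Filip1l: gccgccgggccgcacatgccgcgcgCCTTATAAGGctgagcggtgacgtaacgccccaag
Fbxl22: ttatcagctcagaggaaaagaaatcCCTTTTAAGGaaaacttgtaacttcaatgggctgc

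Pericyte genes were the mirror group. Of 15 tested genes, 14 were higher in pericytes, none was higher in smooth muscle and 1, Slc38a11, was not called, with a median log2 fold change of -2.70, beside 13.9% of all tested genes higher in pericytes; the counts were the same in cells with 5 or more mural genes. Abcc9, the sulfonylurea receptor subunit that assembles with Kcnj8 and whose gene is its neighbour on chromosome 6 (142587862 to 142702315, mm10), had 1238, 1099, 1918 and 1175 CPM in pericytes and 4.70, 12.1, 10.1 and 0 in smooth muscle. The pericyte values exceeded every smooth muscle value, with library D2-1 the highest, and the log2 fold change was -7.08 (SE 0.37, adjusted p = 8.27e-19). Atp13a5, a P-type ATPase known as a pericyte marker, was at 1734 ± 270 (SD, n = 4) in pericytes and 25.4 ± 10.2 in smooth muscle (log2 fold change -5.71, SE 0.30, adjusted p = 8.08e-19). Ndufa4l2, a mitochondrial protein induced by low oxygen, was a graded case, at 1831 ± 347 in pericytes and still 280 ± 33.9 in smooth muscle (log2 fold change -2.37, SE 0.21, adjusted p = 5.34e-12). Slc38a11, an amino acid transporter, was at 674 ± 196 and 449 ± 159, and its log2 fold change of -0.31 had an adjusted p of 0.331.

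**Figure D3:**
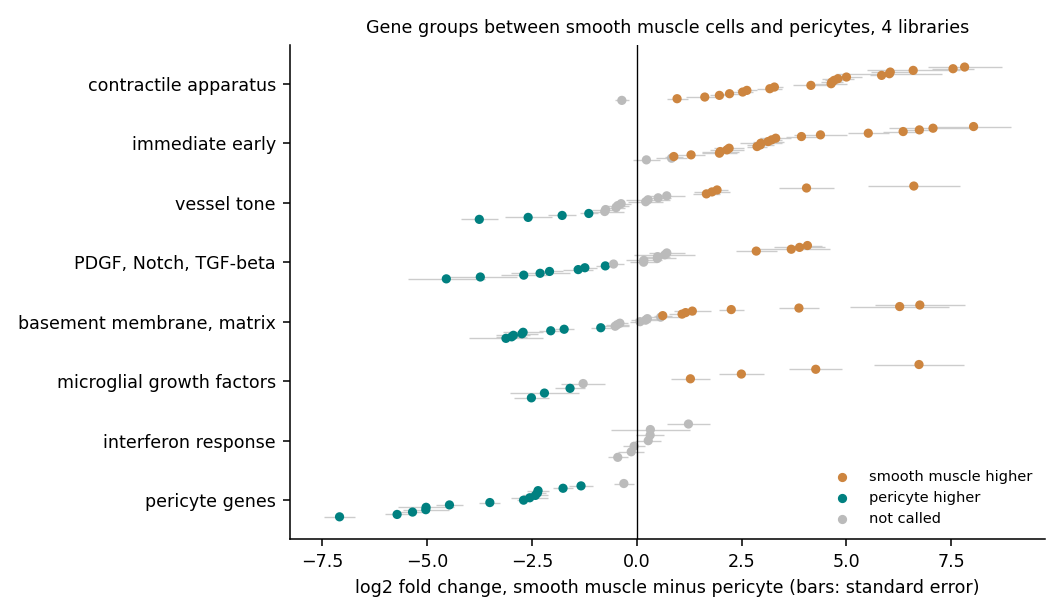
Log2 fold change of smooth muscle over pericyte for each tested gene of 8 gene lists, without the marker lists of other cell types and the cell cycle list, 1 row per list, with bars for the standard error; brown and teal points passed an adjusted p of 0.05 and grey points did not. Contractile genes (20 of 21) and immediate early genes (19 of 21) lie on the smooth muscle side, pericyte genes (14 of 15) on the pericyte side, and the other 5 lists drawn have points on both.

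Beyond the lists, the largest differences named genes of several kinds. In smooth muscle, Csrp1, an actin-bundling LIM protein, had 1203, 1038, 1395 and 1154 CPM, Sorbs2, an adaptor of actin fibres, had 1114, 495, 1638 and 1353, and Palld, the actin scaffold palladin, had 851, 410, 1075 and 862. Pericytes held no UMI of the 3 genes, which were at least 79.0-fold, 76.0-fold and 53.2-fold higher. The rest of the 15 leading genes were Enah, an actin-filament elongation factor, Fbxl22, Rbm24, an RNA-binding splicing factor of muscle, Ptgis, the prostacyclin synthase, Dpysl3, Rasd1, Fosb, Cnn1, Pln and, in addition, Clu, Nnat and Id4. Those last 3 were uneven, with Clu at 79.9, 1816, 10.1 and 342 CPM and its highest value in library D0-3, which also held 4 ependymal-marker cells. Clu, Nnat and Id4 fell below the expression filter once cells with fewer than 5 mural genes were left out, and they lost their call with DESeq2.

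In pericytes the 15 leading genes included several membrane transporters. Slc22a8, an organic anion transporter of brain barriers, had 296, 598, 262 and 339 CPM, Slc6a13, a transporter of the inhibitory transmitter GABA that fibroblasts of the vessel wall also make, had 215, 283, 262 and 90.4, and neither had a UMI in smooth muscle, which made them at least 106-fold and 53.5-fold higher. Secreted factors were another kind. Cthrc1, a secreted collagen-associated protein, had 188, 457, 305 and 113 in pericytes and none in smooth muscle (at least 74.2-fold higher), and Nts, the neuropeptide neurotensin, had 215, 294, 174 and 67.8 (at least 51.1-fold higher). Nodal, a ligand of the TGF-beta family, had 323, 359, 349 and 67.8 in pericytes against a single smooth muscle UMI, with a 95% counting interval of the pooled ratio from 35.2 to 8212. The acute-phase genes Saa1 and Saa2 are near-identical neighbours on chromosome 7 between which the authors' counting could have split reads; Saa1 ranged from 53.8 to 654 in pericytes, and both had no UMI in smooth muscle. Ggt1, Slc16a12, Plxdc1, St8sia4, Spaar, Adgrf5, Sfrp2 and Abcc9 made up the rest, and Adgrf5 and Sfrp2 were below the filter in cells with 5 or more mural genes.

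**Figure D4:**
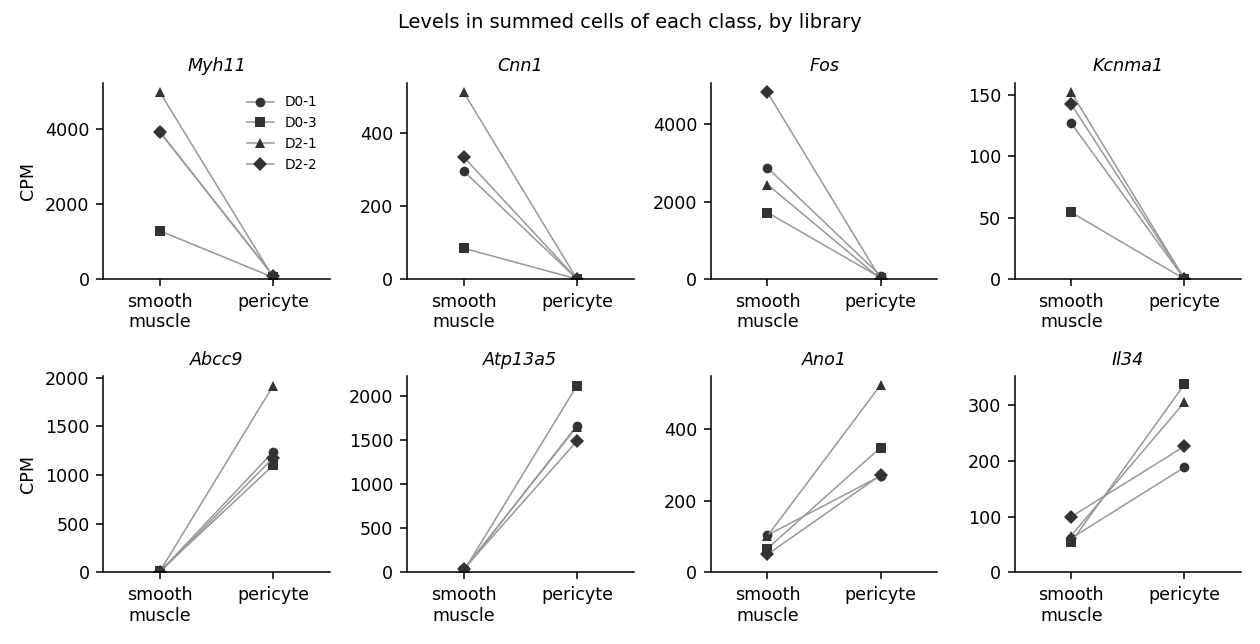
CPM of selected genes in the smooth muscle and pericyte sums of the 4 libraries with 10 or more cells of each class, on linear axes from 0; each line and symbol is a library. Myh11, Cnn1, Fos and Kcnma1 fall from smooth muscle to pericyte in every library, and Abcc9, Atp13a5, Ano1 and Il34 rise.

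Signalling genes of the vessel wall were called in both directions. Of 19 tested genes of the PDGF, Notch and TGF-beta pathways and of mural transcription factors (28 listed), 4 were higher in smooth muscle, 8 were higher in pericytes and 7 were not called; the smooth muscle share stood near the 21.2% of all tested genes, and the pericyte share above the 13.9%. In cells with 5 or more mural genes it was 4 and 7 of 17. Among the receptors, Notch1 was at 371 ± 110 CPM (SD, n = 4) in pericytes and 70.3 ± 17.1 in smooth muscle (log2 fold change -2.08, SE 0.32, adjusted p = 1.40e-06), while Hes1, a Notch target, was at 282 ± 81.7 and 294 ± 96.4 and was not called (adjusted p = 0.185). Another target, Heyl, was higher in pericytes (267 ± 121 against 78.3 ± 19.9; log2 fold change -1.40, adjusted p = 0.00149), a call lost without the low-count filter (adjusted p = 0.0545). Of the transcription factors, Foxf2, which pericytes need for the barrier, was at 94.3 ± 32.4 in pericytes and 15.3 ± 7.01 in smooth muscle, Zic1 at 466 ± 94.8 and 163 ± 38.5, and Ebf1 at 932 ± 161 and 445 ± 82.2, with log2 fold changes of -2.30, -1.24 and -0.75 that all passed. Ebf1 lost its call without the low-count filter (-0.45, adjusted p = 0.509), and Foxf2 was below the filter in cells with 5 or more mural genes.

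Id3, an inhibitor of helix-loop-helix factors that BMP signals induce, ran the other way. It had 1067, 1213, 614 and 726 CPM in smooth muscle and 161, 54.4, 0 and 67.8 in pericytes. No library of a class reached the other class, and the log2 fold change was 4.07 (SE 0.34, adjusted p = 1.06e-12). Its relative Id1 had a log2 fold change of 3.88, with overlapping libraries. The BMP ligands Bmp4 (23 UMIs in pericytes against 2 in smooth muscle, 95% counting interval of the pooled ratio 10.4 to 367) and Bmp5 (19 UMIs against 4, log2 fold change -3.73) were instead called higher in pericytes.

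Of 18 tested genes that set vessel tone (26 listed), 5 were higher in smooth muscle, 4 were higher in pericytes and 9 were not called, beside 21.2% and 13.9% of all tested genes; with 5 or more mural genes it was 6 and 4 of 17. Kcnma1, the pore of the calcium-activated BK potassium channel, had 127, 54.3, 152 and 142 CPM in smooth muscle and no UMI in pericytes (at least 7.86-fold higher). Atp2a2, the calcium pump of the sarcoplasmic reticulum, was at 758 ± 162 (SD, n = 4) and 254 ± 85.9 (log2 fold change 1.91, adjusted p = 7.52e-08), and Pde3a, a cyclic-nucleotide phosphodiesterase, at 357 ± 103 and 153 ± 74.9 (1.66, adjusted p = 4.97e-05). Ano1, a calcium-activated chloride channel, had 269, 348, 523 and 271 in pericytes and 103, 66.4, 101 and 49.9 in smooth muscle, with no overlap (log2 fold change -1.78, SE 0.33, adjusted p = 2.36e-05), and Adora2a, an adenosine receptor, was at 151 ± 13.8 in pericytes and 20 ± 8.13 in smooth muscle (-2.59, adjusted p = 2.38e-04). The 2 subunits of the nitric oxide receptor differed in their calls, since Gucy1b1 was higher in pericytes (log2 fold change -1.14, adjusted p = 5.23e-05) and Gucy1a1 was not called (-0.37, adjusted p = 0.202) unless library D0-1 was left out (-0.64, adjusted p = 0.0397); the difference between the subunits was not tested.

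Genes of the matrix were called in both directions. Of 23 tested genes of basement membrane and matrix (30 listed), 8 were higher in each class and 7 were not called, beside 21.2% and 13.9% of all tested genes; with 5 or more mural genes it was 8 and 9. Several basement membrane components were higher in pericytes, among them the nidogen Nid1 at 373 ± 125 CPM (SD, n = 4) against 37.4 ± 13.9, and the laminin chains Lamc1 at 525 ± 131 against 98.6 ± 27.3, Lamc3 at 292 ± 44.8 against 30.0 ± 16.2 and Lama2 at 341 ± 185 against 38.6 ± 23.7. Their log2 fold changes were -2.98, -2.05, -2.94 and -2.74, and all passed. The collagen chain Col4a1 passed at -0.86 but not without the low-count filter (-0.56, adjusted p = 0.351), and its partner Col4a2 was not called (-0.52, adjusted p = 0.220). Higher in smooth muscle were Eln, the elastin of arterial walls, with 179, 60.3, 178 and 121 CPM and none in pericytes (at least 9.14-fold higher), Itga8, a matrix-binding integrin chain (at least 6.49-fold higher), and Timp3, an inhibitor of matrix proteases, at 699 ± 100 against 216 ± 178 (log2 fold change 2.25). Sparcl1, a matricellular protein, was at 5121 ± 1199 and 2863 ± 679 (1.16, adjusted p = 1.96e-07).

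Ligands and factors that can act on microglia were examined because the treatment blocks CSF1R. Of 21 listed genes 8 were tested; 4 were higher in smooth muscle, 3 higher in pericytes and 1 was not called (3 and 3 of 6 with 5 or more mural genes), beside 21.2% and 13.9% of all tested genes. Il34, which encodes a ligand of CSF1R, had 188, 337, 305 and 226 CPM in pericytes and 61.1, 54.3, 65.9 and 99.7 in smooth muscle. Every pericyte sum lay above every smooth muscle sum, and the log2 fold change was -1.59 (SE 0.36, adjusted p = 4.54e-04), or -1.27 in cells with 5 or more mural genes. Over the 8 libraries, 258 mural cells held 176 UMIs of Il34 (136 CPM), 763 endothelial cells held none of 3666655 UMIs, which allows up to 0.818 CPM, and 22376 microglia held 3. The other CSF1R ligand, Csf1, was too low in mural cells to test. Cxcl12, a chemokine, was higher in pericytes (279 ± 105 against 39.8 ± 43.5; log2 fold change -2.51, adjusted p = 5.52e-06). Tgfb3 was seen in smooth muscle (132, 42.2, 213 and 171 CPM) and not in pericytes (at least 9.23-fold higher), and the smaller differences of Tgfb1 and Tgfb2 lost their call under several alternatives. Apoe, a lipid carrier, had 179, 5894, 634 and 1061 CPM in smooth muscle, the highest again in library D0-3; its log2 fold change was 2.49 in all cells, 0.69 in cells with 5 or more mural genes, and 0.93 without that library (adjusted p = 0.117).

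Immediate early and stress genes were higher in smooth muscle, in 19 of 21 tested genes, with none higher in pericytes and a median log2 fold change of 2.96 (20 of 21 and 3.25 in cells with 5 or more mural genes), beside 21.2% of all tested genes higher in smooth muscle. Fos, a transcription factor that is switched on within minutes of a stimulus, had 2877, 1719, 2445 and 4829 CPM in smooth muscle and 80.7, 32.6, 0 and 0 in pericytes. The classes were far apart in every library, and the log2 fold change was 6.74 (SE 0.35, adjusted p = 8.27e-19). Klf2, a factor that responds to flow, had 602, 730, 604 and 997 in smooth muscle and 2 UMIs in all pericytes (95% counting interval of the pooled ratio 19.2 to 576), and Klf4 had no pericyte UMI (at least 8.50-fold higher). Jund, at 816 ± 45.2 and 544 ± 92.0, differed least among those called (log2 fold change 0.88, adjusted p = 0.00144). Digestion at warmth is known to induce these genes, and smooth muscle cells also had more mitochondrial UMIs and greater depth, as given above; the part that handling took in this difference was not tested. The same list summed to between 6714 and 23301 CPM in the mural cells of Ctrl (the highest in Ctrl-2, with 3 cells), 8010 and 15722 in D0 and 10060 and 14467 in D2-1 and D2-2.

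Other lists showed where the class contrast was mixed with other cells. The ependymal genes Tmem212 and Ccdc153 were both called higher in smooth muscle and were not tested in cells with 5 or more mural genes, where they had no UMI. S100a9, a neutrophil gene, had 1123, 6154, 30.4 and 71.2 CPM in smooth muscle, and its log2 fold change of 6.60 was 3.11 in those cells. Fibroblast markers were called for 1 of 4 tested genes, on the pericyte side, and for 1 in each direction in those cells. The gene on the pericyte side was Slc6a13, named above among the leading pericyte genes. It had a UMI in 41.35% of pericytes, so its call is not by itself a sign of other cells. Of all genes tested in the class contrast, 21.2% were higher in smooth muscle and 13.9% were higher in pericytes. The counts of the fibroblast, microglial and interferon lists stand beside these shares. Tyrobp, a microglial adaptor, was the only microglial marker of 7 tested that was higher in smooth muscle (log2 fold change 3.53, adjusted p = 1.65e-05; 94 UMIs against 3, 95% counting interval of the pooled ratio 2.85 to 42.4). None of 7 tested interferon-response genes was called in either direction (edgeR, adjusted p), though in cells with 5 or more mural genes 1 of 5, Ifitm3, was higher in pericytes (log2 fold change -0.68). Only 1 of 10 cell cycle genes reached the filter, and it was not called.

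The diet and its withdrawal were compared over whole mural sums, with 2 Ctrl, 3 D0 and 2 D2 libraries, because too few Ctrl libraries had enough cells of each class. Of 4097 genes tested with edgeR, 0 (0.0%) passed an adjusted p of 0.05 for D0 and 0 (0.0%) for D2. At an unadjusted p under 0.05 there were 117 genes for D0 (71 higher and 46 lower than Ctrl) and 134 for D2 (70 and 64), and DESeq2 called none for either, with 42 and 32 at an unadjusted p under 0.05. Restricted to cells with 5 or more mural genes, edgeR called 0 of 3433 genes in either comparison, and 124 had an unadjusted p under 0.05 in each. Median log2 fold changes of all genes were -0.01 in both comparisons. The D0 and D2 comparisons share their Ctrl libraries, which held 16 and 20 mural cells.

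No list of the mural programme held a gene that passed for D0 or D2. Acta2 had 13318 and 18620 CPM in Ctrl-1 and Ctrl-3, 16214, 18404 and 7082 in D0, and 17758 and 13954 in D2; it rested on the selecting genes and is given without a test. Of the 22 contractile genes tested, none passed in D0 or D2. In D0, 21 had a log2 fold change below 0 and 1 above, with a median of -0.40. In D2, 12 were above 0, with a median of 0.01. Of all 4097 tested genes, 2010 were above 0 in D0 and 2020 in D2. Library D0-3 had the lowest CPM of the fitted libraries for each of these genes. For Tpm2, D0-1 and D0-2 had 4894 and 4330, inside the range of Ctrl-1 and Ctrl-3 (4173 and 5208), and D0-3 had 1813. For Myh11, D0-2 was also low, with 3188, 1661 and 836 in D0 against 3219 and 2608 in Ctrl-1 and Ctrl-3. The smooth muscle share of mural cells was 65.7%, 50% and 36.2% in D0, against 56.3% and 65.0% in the 2 fitted Ctrl libraries. In library D0-3, 6 of the 47 mural cells held astroglial markers, and all 6 were in the smooth muscle class with 3 or 4 mural genes. Their median depth was 13038 UMIs, so they weigh on the summed CPM of that library. The part of the smooth muscle share and of these cells in the contractile values was not tested by these sums. When only smooth muscle cells were summed, in libraries with 5 or more of them, no gene passed for either comparison. The 14 tested pericyte genes had medians of 0.15 in D0 and 0.02 in D2, and none passed.

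**Figure D5:**
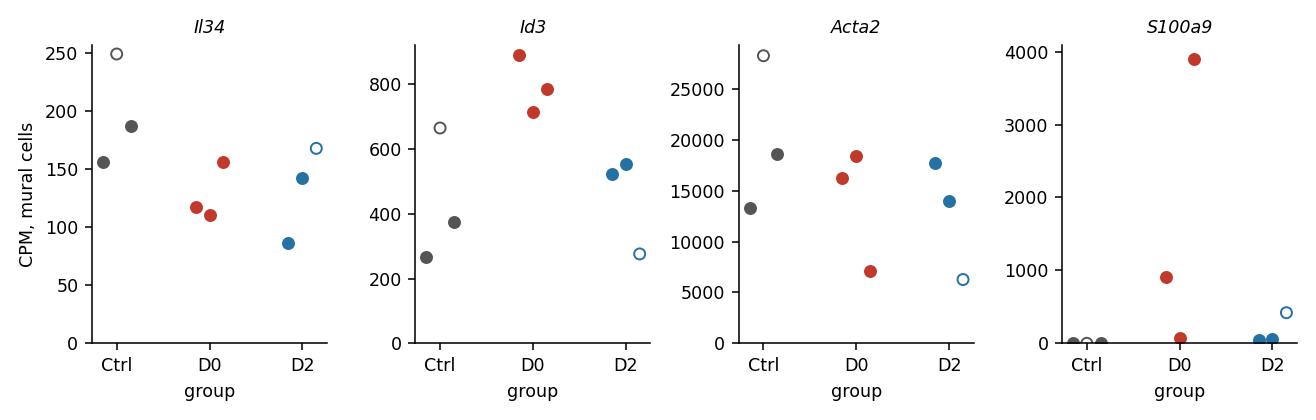
CPM in whole mural sums by library for Il34, Id3, Acta2 and S100a9 in Ctrl, D0 and D2, on linear axes from 0; open circles are library Ctrl-2 (3 mural cells) and library D2-3, which were outside the test. Il34 lies between 86.4 and 249 in every library, and S100a9 reaches 3902 in library D0-3 while it stays under 10 in Ctrl.

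Il34 in mural cells was at 156 and 187 CPM in the fitted Ctrl libraries, 118, 111 and 157 in D0, and 86.4 and 143 in D2. D0 overlapped with Ctrl in D0-3 and D2 lay below Ctrl, but the log2 fold changes of -0.41 (SE 0.33, adjusted p = 1.00) and -0.58 (SE 0.36, adjusted p = 1.00) did not pass, and Ctrl-2 and D2-3 had 249 and 168. The sign turned in D0 with none of the microglial genes allowed (0.15) and in D2 with smooth muscle cells only (0.033). Id3 had the smallest unadjusted p of the listed signalling genes in D0 (0.000926). It was at 266 and 375 in Ctrl and 891, 714 and 786 in D0, which did not overlap, for a log2 fold change of 1.29 (SE 0.29, adjusted p = 0.948); library Ctrl-2, with 3 cells, had 665. In D2 it was at 523 and 555 (log2 fold change 0.76, SE 0.31, adjusted p = 1.00).

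Markers of other cell types varied between libraries. S100a9 had 9.17 and 7.49 CPM in Ctrl, 910, 73.8 and 3902 in D0 and 38.9 and 63.4 in D2. The summed neutrophil list of 4 genes had 9.17 and 7.49 in Ctrl, 1884, 148 and 7406 in D0 and 60.5 and 116 in D2, and 489 of the 497 such UMIs in library D0-1 lay in 1 cell. In cells with 5 or more mural genes S100a9 was at 10.7 CPM in library D0-3 and the list at 37.5, while library D0-1 still had 1133 and 2350. The complement gene C1qa, made by microglia, was at 156 and 187 CPM in the fitted Ctrl libraries and 41.5 in Ctrl-2. It was at 167, 148 and 53.4 in D0, 47.5 and 37.0 in D2-1 and D2-2, and 204 in D2-3. Its D2 difference did not pass (log2 fold change -1.98, adjusted p = 1.00). Tyrobp, of the same list, went the other way in D0 without passing (log2 fold change 2.21). It was at 0 and 67.4 in the fitted Ctrl libraries, 118, 357 and 118 in D0 and 99.4 and 132 in D2. Of 8 tested microglial markers, 2 had a log2 fold change above 0 in D0 and 2 in D2, and none passed. Of all 4097 genes, 2010 and 2020 lay above 0. The 9 fibroblast markers summed to 926 and 3117 CPM in Ctrl-1 and Ctrl-3, between 861 and 943 in D0, and 613 and 449 in D2. In cells with 5 or more mural genes they summed to 996 and 307 in Ctrl-1 and Ctrl-3. There they were at 635, 1007 and 1296 in D0 and 696 and 426 in D2-1 and D2-2, so the groups overlapped. Astroglial markers ran from 7.58 CPM in library D0-1 to 1325 in D0-3. Erythroid markers were at 0 in the mural cells of all 9 libraries.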

How the data were processed

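The authors made the deposited count matrices with Cell Ranger 3.1.0 on mm10 per the labels (3.0.2 in the file headers of 6 libraries; Ctrl-2, Ctrl-3 and D2-3 carry 3.1.0); the values are raw UMI counts per gene and barcode, not normalized. Library totals ran from 20257894 to 61230741 UMIs, and summed mural UMIs from 24076 to 263780. Of 36391 barcodes, 30463 had 500 to 20000 UMIs, 200 or more genes and at most 10% mitochondrial UMIs. No doublet caller was run; the microglial and endothelial limits left out some barcodes with both programmes, and 9 mural cells still held 8 or more of 16 microglial markers. The members, the gene lists and the rules were chosen with earlier results of these data known.

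Counts were summed per library (10 or more cells) and tested with edgeR 4.0.16 in R 4.3.3 (filterByExpr, TMM, quasi-likelihood, Benjamini-Hochberg); DESeq2 1.42.0, other scalings, gates and left-out libraries were alternatives. The 10 selecting genes that passed the filter were left out of counts in the class contrast; 9 stayed among those fitted for D0 and D2, and their tests are not used. Shares were compared by exact permutation over libraries, two-sided, in Python 3.11.15 with scipy 1.17.1. The edgeR script was tested on simulated data. Replicates of the treated groups were pools of 2 brains. Named genes, beside listed ones, were the 15 largest differences per class among called genes with 50 or more CPM in the higher class and the same direction in every library. No gene passed for D0 or D2, so those genes were named from the lists. Gene positions came from an annotation of GRCm38 (31011 of 31053 IDs matched), and promoters from RefSeq. Intervals cover counting error only. A few members of the lists are counted but not reported here by name.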

Additional observations from a re-analysis of the deposited data

Results flagged for a closer look

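Among 134 sets of 4 libraries (92 genes, smooth muscle or pericyte sums), 8 held a library whose gap to its nearest neighbour was large for the range of the set, and chance gives about 1 in 20 such sets. In pericytes library D2-1 was high for Abcc9 (1918 CPM), Gucy1b1 (1395) and Timp3 (479), library D2-2 was low for Nodal (67.8), and library D0-3 was high for Egr1 (141). In smooth muscle library D0-3 was high for Gas6 (471) and Apoe (5894), the library in which 4 ependymal-marker cells were found, and library D2-2 was high for Klf4 (285). Library D2-3, outside the comparisons, had a mural share of 0.940%, above every Ctrl library.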

How the results depend on the processing

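Few mural cells limit these results: 3 to 20 per Ctrl library, 4 libraries for the class contrast, and tests of treatment within a class only at 5 or more cells per library. The class contrast called 841 to 1006 genes when a library was left out, 870 with no replicate block, 892 with DESeq2, 1143 with upper-quartile scaling (which moved the median log2 fold change of all genes by -0.13 and the share of calls higher in smooth muscle from 60.5% to 54.0%), 1371 without a filter on low counts, 1161 and 1180 with the split at 1 or 4 times, 1092 with none of the microglial genes, 1128 with 5 or more mural genes and 1164 without the mitochondrial limit. Between 807 and 1130 of these were also among the 1157 reported. With library D2-3 included nothing changed, since it had fewer than 10 cells of each class. Over all named genes and alternatives of the class contrast, a call was lost 23 times and gained 5 times, and no sign changed; Clu, Nnat, Id4, Ccdc153, Tmem212, S100a8, S100a9 and Retnlg lost it with DESeq2.

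The counts for D0 and D2 stayed at 0 in most alternatives. Where 2 or more libraries stayed in each compared group, leaving out a library gave 0 to 2 calls for D0 and 0 for D2. The calls were S100a8 and S100a9, higher in D0 without library D0-2. Other left-out libraries reduced a compared group to 1 library, with the spread taken from other groups, so only effect sizes are given. Without library D2-2, log2 fold changes in D2 were 8.04 for Cd52, 6.90 for Cd74, 9.56 for H2-Aa, 9.68 for H2-Ab1 and 6.55 for H2-Eb1. In that fit D2 is library D2-1 alone, and which of its cells held these RNAs was not tested. Without library Ctrl-1, Apod, a fibroblast marker, had log2 fold changes of -5.51 in D0 and -5.84 in D2. It had 1386 CPM in library Ctrl-3, where 1 cell held 377 of the 416 fibroblast UMIs. Without a filter on low counts 21 genes passed for D0 and 20 for D2, and with pericytes only, in libraries with 5 or more of them, 1 gene of 397 (Dcn, a fibroblast gene, lower) passed for each; that cell, with 3 mural genes, was in the pericyte class by the ratio alone, and the fibroblast list was at 16620 CPM in the Ctrl-3 pericytes against 525 to 1308 in the D0 libraries, D2-1 and D2-2. Ctrl-1, the other Ctrl library of that fit, also had 1 fibroblast-marker cell in its pericyte class. The cause of the Dcn call was not tested. The log2 fold change of Il34 turned to 0.15 in D0 with none of the microglial genes allowed and to 0.033 in D2 with smooth muscle cells only.

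The mural share differed from Ctrl by 0.660 to 1.39 percentage points in D0 and 0.850 to 1.27 in D2 when a library was left out, and by 0.905 in D2 with D2-3. The number per 100 endothelial cells differed by -5.14 to 12.9 in D0 and -6.74 to 9.90 in D2 when a library was left out (-0.244 without library D0-1), by -1.69 and -2.39 after thinning to 2000 UMIs, and by -1.30 and -0.0934 without the mitochondrial limit. The smooth muscle share differed by -19.6 to -4.78 points in D0 and -8.79 to 11.8 in D2 when a library was left out (-1.68 in D2 without library Ctrl-1); in D0 it was -19.2 after thinning and -23.8 with 5 or more mural genes, and in D2 -3.28 with none of the microglial genes, -8.28 after thinning, -2.96 with the split at 4 times, -11.8 with 5 or more mural genes and -6.14 with library D2-3. These alternatives with 5 or more mural genes, no mitochondrial limit and classes of 5 or more cells were chosen after seeing the data.

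Libraries share replicate numbers. The deviations of 5 same-numbered pairs correlated between -0.31 and 0.27, and those of differently numbered pairs between -0.40 and 0.40. With 2 fitted libraries in Ctrl and 2 in D2, the deviations within each of these groups mirror each other. These values therefore cannot show whether the numbers pair the libraries. With the replicate block, the counts for D0 and D2 were 0 and 0, the share differences were 0.920 and 1.16, those per 100 endothelial cells 4.89 and 6.71, and those of the smooth muscle share -12.01 and 2.70. Fits of D0 and D2 that needed 20 or more cells, their tests by class at 10 or more cells and a fit with class as a term were not run, since too few Ctrl libraries qualified. The class contrast at 20 or more cells was not run either, since no library held that many cells of both classes.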
